A study of Homo sapiens with 4 samples.

Results

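The EGF family ligands and their receptor EGFR were followed in 2 human cancer cell lines, each with and without the compound CPYPP. The 10 genes were EGF, TGFA, AREG, EREG, EPGN, HBEGF, BTC, NRG1, NRG2 and EGFR, taken by their symbols from a count table of 61806 genes, and each matched 1 row. MDA-MB-231 is a breast cancer line and MDA-MB-435 is labelled a melanoma line. Both are wild type per the labels, and each was sequenced once untreated and once after 6 h with 10 µM CPYPP, a small-molecule inhibitor of the DOCK family of RAC activators. The treatment and culture notes (DMEM/F12 with fetal bovine serum) name MDA-MB-435 for all 4 samples, so the dose in MDA-MB-231 rests on the same note. With 1 library per condition there was no replicate, so the intervals below cover counting error only.

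EGF family ligands are made as membrane-anchored precursors that metalloproteases of the ADAM family cut from the cell surface. The released ligand binds EGFR or a related ERBB receptor, the receptors pair and phosphorylate each other, and the RAS-RAF-MEK-ERK and PI3K-AKT cascades are switched on. EGF, TGFA, AREG and EPGN bind EGFR, HBEGF, EREG and BTC bind EGFR and ERBB4, and the neuregulins NRG1 and NRG2 bind ERBB3 and ERBB4 instead. Several of the ligands are themselves induced by ERK signalling, and autocrine loops of TGFA, AREG and HBEGF are common in carcinoma cells.

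The genes lie on 5 chromosomes, and 4 of the ligands are neighbours. EPGN, EREG, AREG and BTC stand in a row on chromosome 4, with 486 kb from the start of EPGN to the end of BTC. The gaps between them are 48.4 kb, 56.4 kb and 290 kb. The EGF gene itself is on the same chromosome but 35118 kb further on. HBEGF and NRG2 are 290 kb apart on chromosome 5, TGFA is on chromosome 2 and EGFR on chromosome 7. All 10 are protein-coding in the table, and their positions overlap those of GENCODE v29, which is on GRCh38.

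The stretch upstream of the start of 5 of the genes is shown because EGF and HBEGF had more and EREG fewer transcripts with CPYPP in both lines, and because AREG and EGFR were among those furthest apart between the lines. Each is the 250 bases before the RefSeq start (GRCh38.p14), read 5′ to 3′ on the gene's strand, and capitals mark matches on either strand to a short list of motifs: AP-1 (TGANTCA), the cyclic AMP element CRE (TGACGTCA), the heat shock element (GAANNTTC), the antioxidant response element (TGACNNNGC), the GC box (GGGCGG) and the TATA box (TATAAA).
EGF, chr4:109912633-109912882, plus strand: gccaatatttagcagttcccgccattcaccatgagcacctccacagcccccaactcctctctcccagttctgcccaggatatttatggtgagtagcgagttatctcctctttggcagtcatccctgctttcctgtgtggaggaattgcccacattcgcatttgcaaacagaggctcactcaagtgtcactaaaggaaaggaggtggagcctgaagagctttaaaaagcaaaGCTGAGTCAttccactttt
HBEGF, chr5:140346604-140346853, minus strand: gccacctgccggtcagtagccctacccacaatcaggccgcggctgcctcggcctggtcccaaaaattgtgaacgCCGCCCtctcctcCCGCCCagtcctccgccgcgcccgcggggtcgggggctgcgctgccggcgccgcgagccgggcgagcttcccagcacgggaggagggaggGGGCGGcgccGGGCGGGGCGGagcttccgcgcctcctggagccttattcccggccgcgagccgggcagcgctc
EREG, chr4:74364895-74365144, plus strand: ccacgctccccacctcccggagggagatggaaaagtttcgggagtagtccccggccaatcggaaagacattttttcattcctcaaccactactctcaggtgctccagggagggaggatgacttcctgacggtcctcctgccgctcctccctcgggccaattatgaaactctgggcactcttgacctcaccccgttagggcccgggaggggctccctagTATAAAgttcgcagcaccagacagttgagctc
AREG, chr4:74444886-74445135, plus strand: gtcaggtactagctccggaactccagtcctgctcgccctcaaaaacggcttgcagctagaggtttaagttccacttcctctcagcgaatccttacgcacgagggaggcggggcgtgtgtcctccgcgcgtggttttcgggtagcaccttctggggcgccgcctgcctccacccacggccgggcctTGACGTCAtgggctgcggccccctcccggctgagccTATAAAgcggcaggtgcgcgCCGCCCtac
EGFR, chr7:55018767-55019016, plus strand: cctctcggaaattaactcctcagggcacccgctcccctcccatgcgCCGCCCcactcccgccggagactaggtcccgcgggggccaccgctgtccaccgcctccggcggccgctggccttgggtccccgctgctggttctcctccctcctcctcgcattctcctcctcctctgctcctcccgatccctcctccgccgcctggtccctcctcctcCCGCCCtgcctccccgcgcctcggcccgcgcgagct

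The 5 promoters differed in their makeup. The EGF stretch held an AP-1 match whose first base lay 17 bases before the start, and the antioxidant element match at 19 bases overlapped it. Among 35116 promoter windows of 300 bases (250 before to 50 after the start), 7.71% held an AP-1 match and 13.3% an antioxidant element match. AREG held a CRE match 65 bases before the start, which 1.85% of the windows had, a TATA box at 29 bases and a GC box at 9 bases. EREG held a TATA box at 32 bases and none of the other motifs, and 11.5% of the windows had a TATA box.

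HBEGF and the first of 2 EGFR starts were GC-rich and without a TATA box match. HBEGF held 5 GC boxes, and EGFR held 3, of which 1 lay 44 bases into the transcript and so outside the printed stretch. The second RefSeq start of EGFR, 90822 bases further into the gene and not printed, had 42% GC with TATA box matches at 146 and 36 bases and AP-1 matches at 232 and 136 bases before it. A GC box was found in 45.0% of the windows. The GC content of the 300-base windows was 75% for HBEGF and 75.3% for EGFR, against 66.3% for AREG, 57.7% for EREG, 46.7% for EGF and a median of 58.7% over all windows. The heat shock element, which 6.77% of the windows held, was in none of the 5. A match is a run of letters and not a bound site, and an absent match says only that these letters were not in the window. RefSeq entries were found for 9 of the 10 genes, and for 8 an entry began at the gene start in the count table.

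The 4 libraries held 17196385 to 22663954 counts each. MDA-MB-435 had 3031 and 707 counts of SOX10 and 1055 and 761 of S100B without and with CPYPP, whereas MDA-MB-231 had at most 1 count of either. DCT, an enzyme of melanin synthesis, had 658 and 464 counts in MDA-MB-435 and at most 3 in MDA-MB-231. Of the other pigment genes, PMEL went the other way, with 34 and 29 counts in MDA-MB-231 against 13 and 4 in MDA-MB-435. MLANA, TYR and TYRP1 had at most 16 counts in any library. MITF was present in both lines, with 1585 and 690 counts in MDA-MB-231 against 1405 and 809 in MDA-MB-435. The 7 epithelial keratin and junction genes summed to 1945 and 1749 CPM in MDA-MB-231 against 349 and 296 CPM in MDA-MB-435, where CDH1 had 0 counts in both libraries. KRT18 was still expressed in MDA-MB-435, at 242 and 211 CPM, and KRT81 at 57.6 and 49.5 CPM. The part of this difference in lineage markers in the results below was not tested.

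The lines differed first in how much of the family they expressed. The 10 genes together took 0.107% (95% exact binomial interval 0.106 to 0.109) of all counts in untreated MDA-MB-231 and 0.00713% (0.00679 to 0.00749) in untreated MDA-MB-435. Per length, the 9 ligands summed to 120 FPKM in MDA-MB-231 against 16.9 FPKM in MDA-MB-435. FPKM are counts scaled for exon length and sequencing depth, so that genes of different length can be compared. EGFR added 34.0 FPKM in MDA-MB-231 against 0.185 FPKM in MDA-MB-435.

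HBEGF, the heparin-binding ligand that also serves as the diphtheria toxin receptor, had the highest level of the family in all 4 libraries. In untreated MDA-MB-231 the order was HBEGF at 40.1 FPKM, EGFR at 34.0, AREG at 32.1, TGFA at 27.5, EREG at 12.7 and NRG1 at 6.73 FPKM, and BTC, EGF, EPGN and NRG2 stayed at or below 0.505 FPKM. The counting intervals of EGFR and AREG overlapped, as did those of each neighbouring pair from BTC down to NRG2, and the other neighbours were apart.

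In untreated MDA-MB-435 the order was another. HBEGF stood at 9.31 FPKM, TGFA at 4.02, NRG2 at 2.34, EGF at 0.575 and EPGN at 0.473 FPKM, and EGFR followed at 0.185 FPKM. EREG at 0.133 FPKM, BTC at 0.0318 and NRG1 at 0.00394 FPKM were lower still, and AREG had no count, which allows up to 0.0771 FPKM at 3 counts. From EGFR downwards each neighbouring pair had overlapping intervals, as did EGF and EPGN.

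**Figure D1:**
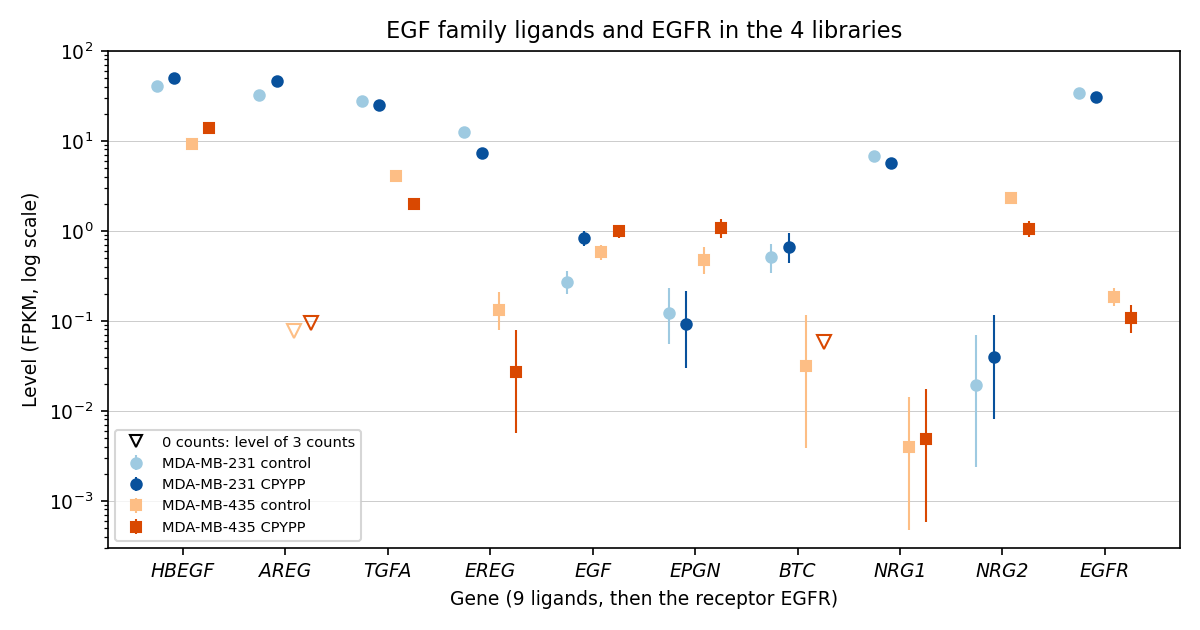
Level of each gene in FPKM (log axis) in the 4 libraries, with 95% Poisson counting intervals; open triangles give the level that 3 counts would have where a library had 0. HBEGF sits between 9.31 and 49.5 FPKM in every library, while EGFR, AREG, EREG and NRG1 are far lower in both MDA-MB-435 libraries and NRG2 is far lower in both MDA-MB-231 libraries.

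The makeup of the ligand pool also differed between the lines. HBEGF made up 33.4% of the summed ligand FPKM in untreated MDA-MB-231, AREG 26.8%, TGFA 22.9% and EREG 10.5%. In untreated MDA-MB-435 HBEGF made up 55.2%, TGFA 23.8% and NRG2 13.8%, and AREG none. TGFA, the transforming growth factor that resembles EGF in structure, thus had a like share in both lines although its level was lower in MDA-MB-435.

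**Figure D2:**
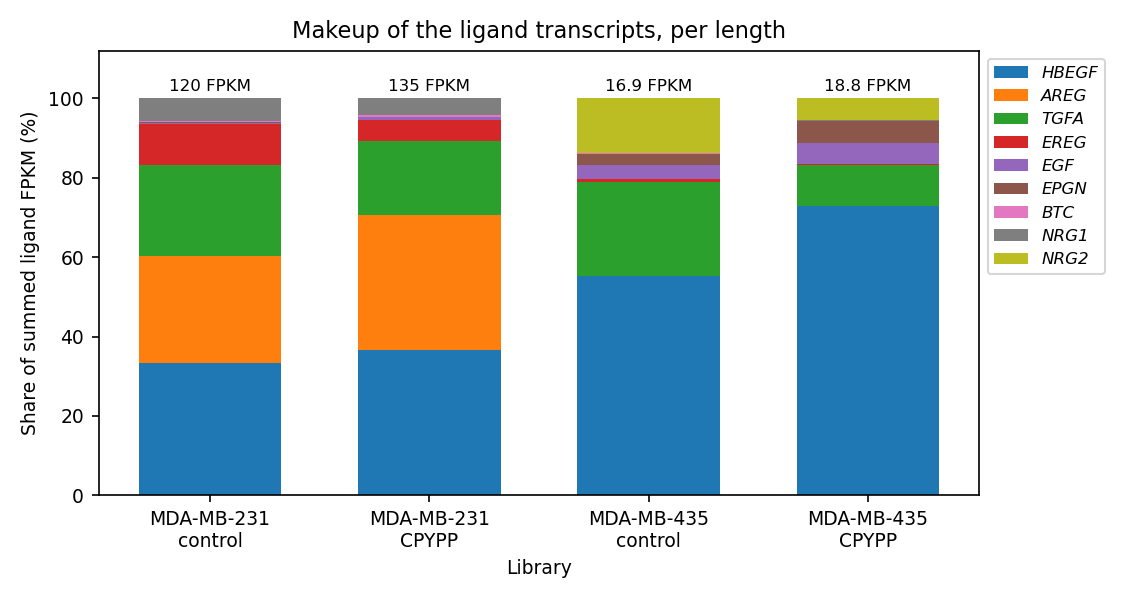
Share of each ligand in the summed FPKM of the 9 ligands (percent), 1 bar per library, with the sum above each bar. The sums are 120 and 135 FPKM in MDA-MB-231 against 16.9 and 18.8 FPKM in MDA-MB-435, and HBEGF makes up 55.2% and 72.8% of the pool in the MDA-MB-435 libraries.

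The comparison of the untreated lines asked how far their family repertoires were apart. All 10 members had at least 10 counts in 1 of the 2 libraries. The fold change exceeded 2 toward MDA-MB-231 for 7 of them, where 21.9% of the 18269 genes tested did so, and toward MDA-MB-435 for 3, where 23.5% did so, so that all 10 were past 2-fold beside 45.4% of all genes tested. The counting intervals of the same 7 and 3 members excluded 1, as those of 40.4% and 39.7% of all genes did. With 1 library of each line the differences are between these libraries, and no test was possible. In bulk RNA, fewer expressing cells and less RNA per cell cannot be told apart.

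EGFR, the receptor of most of these ligands, had 12150 counts in untreated MDA-MB-231 and 70 in untreated MDA-MB-435. This was 186-fold (95% counting interval 147 to 239) in favour of MDA-MB-231, and 158 of the genes tested lay further to that side. With CPYPP the counts were 8161 and 33. An additive fit over the 4 libraries took the line and the treatment as separate terms. In it the line difference of EGFR was 7.79 on the log2 scale (SE 0.187, adjusted p = 6.48e-10, edgeR quasi-likelihood test). The control and CPYPP libraries of a line stand as its repeats in this fit, so its line p-values do not rest on replicate cultures.

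AREG, the ligand amphiregulin, was found in 1 line. It had 1182 and 1257 counts in MDA-MB-231 without and with CPYPP and 0 counts in both MDA-MB-435 libraries. Untreated, it was at least 422-fold higher in MDA-MB-231, taking 3 counts as the floor. Its neighbour EREG, epiregulin, had 1619 and 698 counts in MDA-MB-231 against 18 and 3 in MDA-MB-435, a difference of 96.4-fold (60.8 to 163) between the untreated lines.

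The other 2 genes of the chromosome 4 row were low in both lines. BTC, betacellulin, had 30 and 29 counts in MDA-MB-231 against 2 and 0 counts in MDA-MB-435. The ratio untreated was 16.1 (4.08 to 139). EPGN, epigen, went the other way, with 9 and 5 counts in MDA-MB-231 against 37 and 69 in MDA-MB-435, and was 3.84-fold (1.82 to 9.04) higher in untreated MDA-MB-435. The 4 neighbours on chromosome 4 therefore did not share a direction.

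The neuregulins were split between the lines. NRG1 had 3228 and 1987 counts in MDA-MB-231 against 2 in each MDA-MB-435 library, a ratio of 1730 (479 to 14291) untreated. NRG2 had 2 and 3 counts in MDA-MB-231 against 255 and 93 in MDA-MB-435, a ratio of 119 (32.6 to 988) in favour of untreated MDA-MB-435. Each line thus expressed 1 of these 2 ligands of ERBB3 and ERBB4 and had at most 3 counts of the other.

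HBEGF and TGFA differed less, and EGF least. TGFA had 3029 and 2032 counts in MDA-MB-231 against 468 and 188 in MDA-MB-435, which was 6.94-fold (6.29 to 7.66) untreated. HBEGF had 2688 and 2445 counts against 660 and 793, which was 4.37-fold (4.01 to 4.76) untreated. EGF, the founding ligand, had 46 and 104 counts in MDA-MB-231 against 104 and 145 in MDA-MB-435 and was 2.11-fold (1.48 to 3.05) higher in untreated MDA-MB-435. The EGF count of treated MDA-MB-231 equalled that of untreated MDA-MB-435, although the latter library was the deeper.

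**Figure D3:**
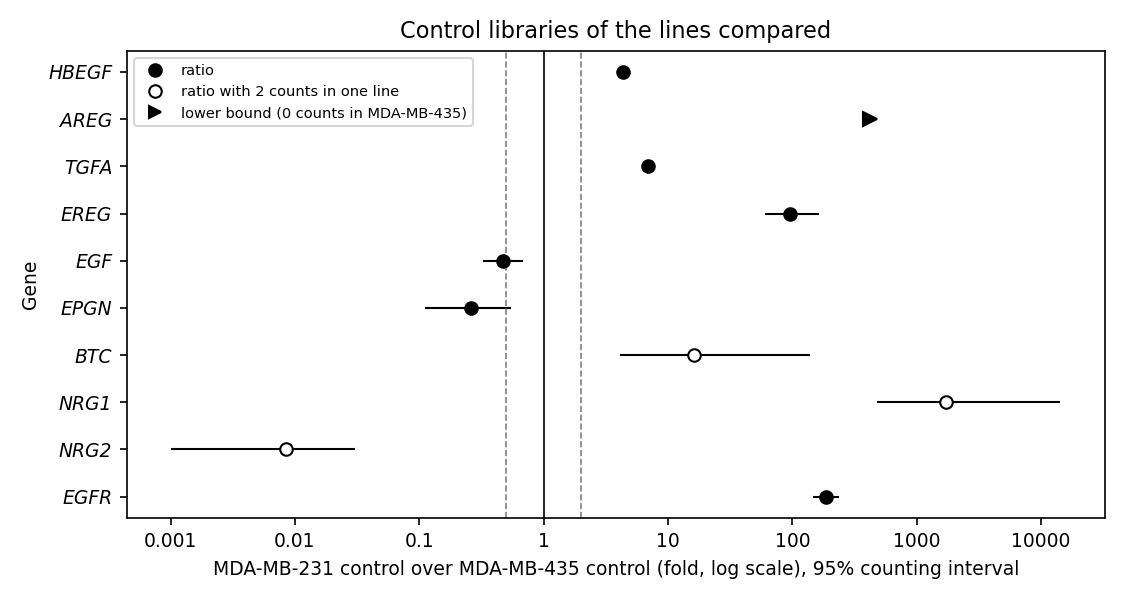
Fold difference of untreated MDA-MB-231 over untreated MDA-MB-435 (log axis) with 95% counting intervals; open circles rest on 2 counts in one of the lines, the triangle is a lower bound and dashed lines mark a fold of 2. The points run from NRG2, 119-fold higher in MDA-MB-435, to NRG1, 1730-fold higher in MDA-MB-231.

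The additive fit called 9 of the 10 members different between the lines at an adjusted p under 0.05, where 62.9% of the 16801 genes fitted were called. The called members were 7 that were higher in MDA-MB-231 (32.4% of all genes) and 2, EPGN and NRG2, that were higher in MDA-MB-435 (30.5%). HBEGF differed by 1.98 on the log2 scale (SE 0.125, adjusted p = 3.48e-07) and TGFA by 3.19 (SE 0.196, adjusted p = 2.85e-07). EPGN differed by -2.69 (SE 0.571, adjusted p = 0.00196) and NRG2 by -5.85 (SE 0.554, adjusted p = 7.19e-06). EGF, at -0.64 (SE 0.324), was not called (adjusted p = 0.107, edgeR quasi-likelihood test). For AREG and NRG1 the fitted size depends on the prior count given to a near-empty line, so their counts stand above instead.

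With CPYPP the summed counts of the 9 ligands were near those of the control in both lines, while single ligands went in opposite directions. The sum was 0.987-fold (0.960 to 1.02) of the control in MDA-MB-231 against 1.08-fold (1.00 to 1.16) in MDA-MB-435, where scaling by total counts gave 0.973-fold (0.903 to 1.05) and by upper quartile 0.999-fold (0.927 to 1.08). The 7 ligands without the neuregulins summed to 1.04-fold (1.01 to 1.08) in MDA-MB-231, or 0.993-fold (0.961 to 1.03) by total counts. In MDA-MB-435 they summed to 1.20-fold (1.11 to 1.30), or 1.08-fold (0.998 to 1.17) by total counts and 1.11-fold (1.03 to 1.20) by upper quartile. Per length, the 9 ligands summed to 120 FPKM in the control and 135 FPKM with CPYPP in MDA-MB-231, and to 16.9 and 18.8 FPKM in MDA-MB-435. In MDA-MB-231, 8 members were tested, 1 was over 2-fold higher, where 5.4% of the 16441 genes tested were, and none was over 2-fold lower, where 5.43% were (10.8% either way). The counting interval lay above 1 for 3 of the 8 and below 1 for 4, beside 26.3% and 23.7% of all genes tested. In MDA-MB-435, 7 members were tested, 1 was over 2-fold higher, where 4.02% of 16527 genes were, and 2 were over 2-fold lower, where 9.75% were (13.8% either way). The interval lay above 1 for 3 of the 7 and below 1 for 4, beside 29% and 25.9% of all genes tested. No test was possible within a line, so these counts are descriptions of single libraries.

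EGF was higher with CPYPP in both lines. It had 46 counts in the control and 104 with CPYPP in MDA-MB-231, 3.09-fold (2.16 to 4.47), the only member past 2-fold there. In all, 351 of the 16441 genes tested had a larger ratio. In MDA-MB-435 it had 104 and 145 counts, 1.80-fold (1.39 to 2.34). In the additive fit the common difference was 1.16 on the log2 scale (SE 0.325), which did not pass the threshold (adjusted p = 0.0591, edgeR quasi-likelihood test). EGF remained a minor ligand throughout, at 0.269 and 0.825 FPKM in MDA-MB-231 against 0.575 and 0.982 FPKM in MDA-MB-435.

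HBEGF and AREG were also above the control, by less. HBEGF had 2688 counts in the control and 2445 with CPYPP in the shallower treated library of MDA-MB-231, which after scaling was 1.24-fold (1.17 to 1.31). In MDA-MB-435 it had 660 and 793 counts, 1.55-fold (1.40 to 1.72). The common log2 difference was 0.42 (SE 0.121, adjusted p = 0.0640, edgeR quasi-likelihood test). AREG had 1182 and 1257 counts in MDA-MB-231, 1.45-fold (1.34 to 1.57), and with CPYPP its level of 46.3 FPKM overlapped that of HBEGF at 49.5 FPKM within counting error.

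EREG, which neighbours AREG and is often named with it as a pair of EGFR ligands, was below the control in both lines. EREG was also the only member called in the additive fit. It had 1619 counts in the control and 698 with CPYPP in MDA-MB-231, 0.588-fold (0.538 to 0.643), so that AREG and EREG went opposite ways in the same cells. In MDA-MB-435 it had 18 and 3 counts, a ratio of 0.215 (0.0406 to 0.736). It fell by 0.90 on the log2 scale over both lines (SE 0.227, adjusted p = 0.0401, edgeR quasi-likelihood test). Of the 16801 genes fitted, 2.85% were called lower and 4.39% higher. The call was lost with DESeq2 (adjusted p = 0.131) and without the term for the line (adjusted p = 1.00), while the sign stayed negative.

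TGFA and EGFR were below the control in both lines, with ratios further from 1 in MDA-MB-435. TGFA had 3029 and 2032 counts in MDA-MB-231, 0.916-fold (0.865 to 0.969), and 468 and 188 in MDA-MB-435, 0.518-fold (0.435 to 0.615). EGFR had 12150 and 8161 counts in MDA-MB-231, 0.917-fold (0.891 to 0.943), and 70 and 33 in MDA-MB-435, 0.608-fold (0.389 to 0.932). Neither passed in the additive fit, with a common log2 difference of -0.52 (SE 0.185, adjusted p = 0.128) for TGFA and -0.29 (SE 0.157, adjusted p = 0.336) for EGFR by the edgeR quasi-likelihood test. Whether the lines differed in the size of these changes was not tested, since no library was left to estimate the spread of such a difference.

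Reads of EGFR and of its antisense gene EGFR-AS1, which overlaps it, could not be told apart if the counting ignored strand. EGFR-AS1 had 12, 13, 1 and 0 counts in the 4 libraries. Whether it was small beside EGFR cannot be read from these counts, because the strand setting is not given. The genes that overlap the other members by position had at most 2 counts in any library.

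Among the neuregulins, the one that each line expressed was below its control. NRG1 had 3228 and 1987 counts in MDA-MB-231, 0.840-fold (0.794 to 0.889). NRG2 had 255 and 93 counts in MDA-MB-435, 0.470-fold (0.367 to 0.599), 1 of the 2 members over 2-fold lower there. In the additive fit neither passed, at -0.25 on the log2 scale (SE 0.168, adjusted p = 0.457) for NRG1 and -0.95 (SE 0.457, adjusted p = 0.273) for NRG2 by the edgeR quasi-likelihood test. Each had at most 3 counts in the other line, so its value rests almost wholly on the control and CPYPP pair of 1 line.

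EPGN and BTC had few counts. EPGN had 37 and 69 counts in MDA-MB-435, 2.41-fold (1.59 to 3.69), the member past 2-fold upward in that line, and 9 and 5 in MDA-MB-231, where it was under the minimum of 10 counts. BTC had 30 and 29 counts in MDA-MB-231, 1.32-fold (0.764 to 2.27), an interval that includes no difference. The common log2 difference was 0.73 for EPGN (SE 0.548, adjusted p = 0.510) and 0.11 for BTC (SE 0.737, adjusted p = 0.960, edgeR quasi-likelihood test), and that of BTC was negative with DESeq2.

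**Figure D4:**
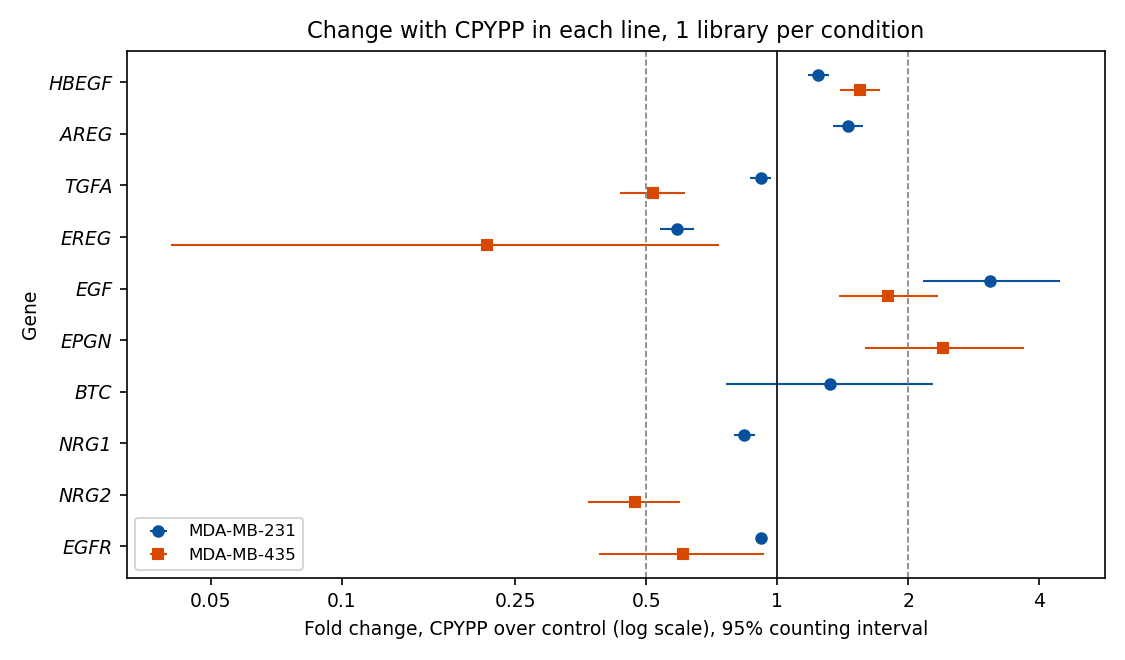
Ratio of CPYPP to control for the members tested in each line (log axis) with 95% counting intervals; circles are MDA-MB-231, squares MDA-MB-435 and dashed lines mark a fold of 2 either way. EGF and HBEGF lie right of 1 in both lines, and EREG, TGFA and EGFR lie left of 1 in both.

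The ligand pool of MDA-MB-435 held a larger share of HBEGF with CPYPP. HBEGF made up 55.2% of it in the control and 72.8% with CPYPP, TGFA 23.8% and 10.5%, and NRG2 13.8% and 5.55%. In MDA-MB-231 the share of AREG was 26.8% and 34.2%, that of HBEGF 33.4% and 36.5%, and that of EREG 10.5% and 5.46%. The same comparison of shares has no replicate, and its error was not estimated.

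The other genes of the pathway were followed in 6 lists with 73 genes, of which 69 had enough counts to be fitted. The additive fit called 16 of the 69 with CPYPP (23.2%), 8 higher and 8 lower, beside 7.23% of all genes fitted. The calls lay mostly among the genes that ERK signalling induces and among the receptor inhibitors and turnover genes, and the PI3K, PLCG1 and STAT3 branch had none among 9. Several called genes are named here after their values were seen, since they were not past 2-fold within a line.

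Of the other receptors, ERBB3, the kinase-poor partner that binds neuregulins, had 147 and 68 counts in MDA-MB-231 against 1451 and 584 in MDA-MB-435. It was 9.21-fold (7.77 to 11) higher in untreated MDA-MB-435, the line that expressed NRG2, and it fell by 0.89 on the log2 scale with CPYPP over both lines (SE 0.172, adjusted p = 0.0125, edgeR quasi-likelihood test). ERBB2, the partner receptor without a ligand of its own, had 1318 and 921 counts in MDA-MB-231 against 698 and 475 in MDA-MB-435, 2.02-fold (1.85 to 2.22) higher in untreated MDA-MB-231. ERBB4 had at most 6 counts in any library, NRG4 at most 8, and NRG3 had none.

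Among the 10 genes of ligand shedding, ADAM17 was the only call with CPYPP. ADAM17, the protease that releases TGFA, AREG, EREG and HBEGF, had 1331 and 1612 counts in MDA-MB-231, 1.65-fold (1.54 to 1.78), and 1714 and 2972 in MDA-MB-435, 2.24-fold (2.11 to 2.37). It rose by 0.90 on the log2 scale over both lines (SE 0.126, adjusted p = 0.00250, edgeR quasi-likelihood test). The median log2 difference of the list was -0.05 in MDA-MB-231 against -0.39 in MDA-MB-435, beside -0.01 for all genes tested in either line. Between the untreated lines, RHBDL2, a rhomboid protease, was 20.5-fold (9.16 to 57.1) higher in MDA-MB-231 with 115 counts against 6, ADAM12 was 3.53-fold (2.02 to 6.48) and ADAM9 2.99-fold (2.89 to 3.09) higher.

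Of the 15 receptor inhibitors and turnover genes fitted, 4 were called higher with CPYPP and none lower. ERRFI1, the inhibitor MIG6 that binds the EGFR kinase, had 7749 and 9271 counts in MDA-MB-231 against 4695 and 6359 in MDA-MB-435 and rose by 0.71 on the log2 scale (SE 0.108, adjusted p = 0.00369). CBL, the ubiquitin ligase that marks EGFR for degradation, rose by 0.62 (SE 0.122, adjusted p = 0.0140), the deubiquitinase USP8 by 0.51 (SE 0.113, adjusted p = 0.0231) and the suppressor of cytokine signalling SOCS4 by 0.47 (SE 0.111, adjusted p = 0.0295), all by the edgeR quasi-likelihood test. The list held genes that promote and genes that oppose receptor loss, since USP8 removes the ubiquitin that CBL adds. Between the untreated lines, LRIG1, which lowers receptor levels, was 5.28-fold (4.47 to 6.26) higher in MDA-MB-435, and PTPN12 was 2.54-fold (2.41 to 2.68) and LRIG2 2.43-fold (2.08 to 2.84) higher in MDA-MB-231.

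The adaptors and the RAS-RAF-MEK-ERK chain leaned upward with CPYPP, by small amounts. MDA-MB-435 had a median log2 difference of 0.14 and MDA-MB-231 one of 0.17, beside -0.01 for all genes tested in either line. For MDA-MB-435 the counting interval lay above 1 for 10 genes (29% of all tested) and below 1 for 2 (25.9%). The numbers for MDA-MB-231 were 8 (26.3%) and 2 (23.7%). Of 16 genes, SOS1, the exchange factor that loads RAS, was the only call and rose by 0.52 on the log2 scale (SE 0.114, adjusted p = 0.0230, edgeR quasi-likelihood test), and within the lines none passed 2-fold with CPYPP. NRAS was 2.86-fold (2.73 to 3.0) higher in untreated MDA-MB-231.

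The 17 genes that ERK signalling induces, many of them feedback inhibitors, were split with CPYPP. In the additive fit 2 were called higher and 7 lower. SPRY2, a Sprouty inhibitor of receptor signalling, had 1682 and 499 counts in MDA-MB-231 against 2889 and 767 in MDA-MB-435 and fell by 1.47 on the log2 scale (SE 0.133, adjusted p = 0.000177, edgeR quasi-likelihood test). SPRY1 had 242 and 82 counts and 77 and 16 counts in the same order, a ratio of 0.268 (0.146 to 0.463) in MDA-MB-435. On the log2 scale, the other genes called lower were SPRY1 by 1.45, IER3 by 1.19, PHLDA1 by 1.00, CCND1 by 0.70, DUSP4 by 0.63 and DUSP6 by 0.56. DUSP6, the ERK phosphatase, was also 4.53-fold (4.15 to 4.96) higher in untreated MDA-MB-231 than in untreated MDA-MB-435.

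FOS and DUSP5 were the genes called higher. FOS, an immediate early transcription factor, had 30 and 71 counts in MDA-MB-231, 3.23-fold (2.08 to 5.13), and 32 and 78 in MDA-MB-435, 3.14-fold (2.06 to 4.90). DUSP5, a nuclear ERK phosphatase, had 902 and 1782 counts in MDA-MB-231 against 616 and 863 in MDA-MB-435 and rose by 1.11 on the log2 scale (SE 0.165, adjusted p = 0.00334, edgeR quasi-likelihood test). EGR1 had 83 and 159 counts in MDA-MB-231, 2.61-fold (1.99 to 3.45), and 43 and 63 in MDA-MB-435. The list as a whole had a median log2 difference of -0.12 in MDA-MB-231 against -0.09 in MDA-MB-435, beside -0.01 for all genes tested in either line.

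**Figure D5:**
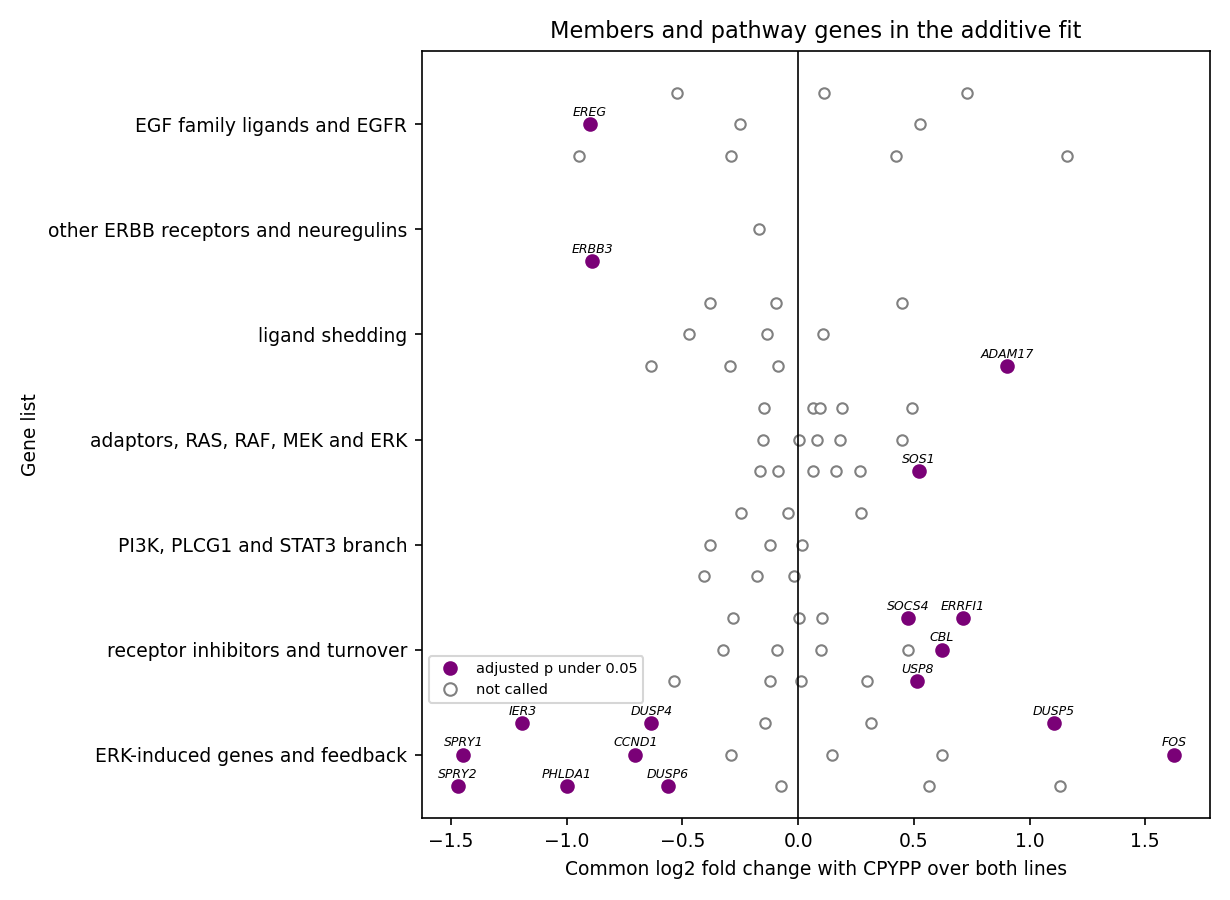
Common log2 difference with CPYPP over both lines from the additive fit, for the members and the 6 pathway lists; each circle is a gene, filled and named where the adjusted p was under 0.05, and the vertical offsets only spread the circles. EREG is the only filled member, at -0.90, and the ERK-induced list runs from -1.47 for SPRY2 to 1.62 for FOS.

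Only TGFA and HBEGF had at least 50 counts in every library, and for these the genes with the most similar profile over the 4 libraries were sought among 10424 genes. Likeness was the Euclidean distance between log2 CPM centred on the mean of the 4 libraries. The nearest to HBEGF were P4HA1 at a distance of 0.0271, GBP3 at 0.0617 and SGMS2 at 0.0904. The nearest to TGFA were PDE10A at 0.275, COL4A1 at 0.369 and ZNF470 at 0.424. P4HA1 had 2345, 2091, 567 and 693 counts in the order untreated and treated MDA-MB-231, then untreated and treated MDA-MB-435, which is the pattern of HBEGF.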

How the data were processed

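Poly(A) RNA was sequenced in 4 libraries, 1 per condition, and the samples were grouped by the cell line and treatment labels. The deposited values are whole-number gene counts made by the authors; per the labels the tools were cutadapt 1.9.1, HISAT2 2.2.1, HTSeq 0.6.1 and DESeq2 with GRCh37.p13. Positions in the table overlap GENCODE v29 (GRCh38) for 58241 of 58254 shared identifiers, so the stated build and the table disagree. The annotation version and strand setting are not given in the sources used here.

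Counts were scaled by TMM (edgeR 4.0.16, R 4.3.3), over the 4 libraries for CPM and FPKM (exon lengths from the table) and within the 2 libraries compared for ratios. A gene was tested with at least 10 counts in 1 of the 2 libraries and called past a fold of 2, with an exact 95% Clopper-Pearson counting interval. PCR reads without molecular identifiers are not independent molecules, so intervals cover counting error only. For bounds, and for calls and ranks over all genes, counts under 3 were set to a floor of 3, which is 0.127 to 0.181 CPM; printed ratios with 1 to 3 counts use the counts themselves. An additive quasi-likelihood fit (edgeR, line and treatment, filterByExpr, 1 residual degree of freedom, biological coefficient of variation 0.121) gave p-values adjusted by Benjamini-Hochberg over 16801 genes. It assumes the same effect in both lines and measures the spread between single libraries only. On simulated data for the treatment term (16625 genes) it recovered 61% of 100 genes changed 2-fold and 95% of 100 changed 4-fold, with 1 false call. The simulation gave every gene the same dispersion and the same treatment effect in both lines, and few genes a line difference. In the real data 62.9% of genes were called for the line, so these rates do not carry over to the calls reported here.

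Named pathway genes were, per list and comparison, up to 3 with the largest change past 2-fold and at least 50 counts in 1 library. A gene that met this rule is not reported here. The members and lists were chosen with earlier results of these data known. Alternatives were other scalings, filters, thresholds, assumed variation and DESeq2 1.42.0. Analyses and plots used Python 3.11.15 with pandas 2.3.3, SciPy 1.17.1 and matplotlib 3.10.9.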

Additional observations from a re-analysis of the deposited data

How the results depend on the processing

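With 1 library per condition no replicate could be left out: the additive fit on 3 libraries has no residual degree of freedom, so that alternative was not run. The line term of the fit pairs each CPYPP library with the control of its line, and the labels give no replicate numbers for a closer pairing. Each member tested in a pairwise comparison kept its direction there under the scalings and the floor tried, while the summed ligand counts of MDA-MB-435 were 1.08-fold by TMM but 0.973-fold by total counts and 0.999-fold by upper quartile. In MDA-MB-435 scaling by total counts shifted every log2 difference by -0.15 and by upper quartile by -0.11. Either way, or with TMM over all 4 libraries (added after seeing the data), TGFA joined the lower calls, giving 4 members called.

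Members called with CPYPP numbered 1 in MDA-MB-231 (2 past a fold of 1.5 and 0 where a biological variation coefficient of 0.4 was assumed) and 3 in MDA-MB-435 (7 past a fold of 1.5, 0 with the whole interval past 2, 0 with variation 0.4). Between the untreated lines 8 of the 10 calls were left with the whole interval past 2. All genes called in MDA-MB-231 numbered 1780, against 511 with at least 50 counts, 3998 past 1.5, 333 with the whole interval, 1056 with variation 0.2 and 268 with variation 0.4. In MDA-MB-435 they numbered 2275, against 814, 4819, 483, 1356 and 337 in the same order. Between the lines they numbered 8288, against 5207 with at least 50 counts and 4368 with variation 0.4.

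Pathway genes called numbered 6 in MDA-MB-231 (17 past 1.5, 3 with the whole interval, 0 with variation 0.4), 7 in MDA-MB-435 (18 past 1.5, 1 with variation 0.4) and 17 between the lines (42 past 1.5, 11 with the whole interval, 7 with variation 0.4).

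In the additive fit, 1 member was called with CPYPP. DESeq2 called 0 members (4 at an unadjusted p under 0.05), DESeq2 size factors in edgeR 3, total counts 3 and no filter 4. EREG was called in each of the last 3; EGF joined it with adjusted p = 0.0170, 0.0295 and 0.00292 in that order, TGFA with 0.0494, 0.0140 and 0.00813, and HBEGF without a filter with 0.0325. BTC reversed with DESeq2, at -0.81 against 0.11. Over all genes the calls numbered 1215 (737 higher, 478 lower), against 1965 by total counts (854 higher, 1111 lower) and 1998 without a filter. Without the term for the line edgeR called 0 members, 0 of all genes (167 at an unadjusted p under 0.05) and 0 pathway genes, against 16. The line effect called 9 members in every alternative. It called 49 pathway genes, 44 to 51 under the other alternatives and 32 without the treatment term. The summed ligand level of treated MDA-MB-231 was 130 FPKM by total counts, against 135 by TMM. Unless the alternative's construction shows it, the cause was not tested.

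At these depths 3 counts correspond to 0.127 to 0.181 CPM, which limits EPGN and NRG2 in MDA-MB-231 and AREG, BTC, EREG and NRG1 in MDA-MB-435. BTC in MDA-MB-231 (30 and 29 counts) and EPGN (37 and 69) and EGFR (70 and 33) in MDA-MB-435 lay above that level but were also low.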
